A study of Homo sapiens with 2 samples.

Results

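Viral restriction factors are host proteins that block steps of viral replication inside the cell. The 10 genes described here are MX1, MX2, BST2, RSAD2, SAMHD1, APOBEC3B, APOBEC3C, APOBEC3F, APOBEC3G and ADAR. All probe sets that the platform annotation pairs with 1 of these genes and no other gene were taken, which gave 18 of the 54675 probe sets of the array. Total RNA came from the human colorectal cancer line HCT116, in 2 cultures with 1 array each: HCT116-CPEB4, in which the RNA-binding protein CPEB4 was over-expressed from a lentivirus, and HCT116-GFP, labelled wild type. Both cultures were kept in the same medium with serum and antibiotics, with no drug, cytokine or virus treatment named in the labels. The sources used here do not say whether the HCT116-GFP cells carried a vector of their own, or whether either line was 1 clone.

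Many of these genes are switched on by type I and type III interferons. Signalling from the interferon receptor acts on promoter elements built from repeated GAAA blocks. MX1 and MX2 are large GTPases of the dynamin superfamily, BST2 (tetherin) anchors budding virions to the cell surface, and RSAD2 (viperin) makes a nucleotide analogue that ends viral RNA chains. SAMHD1 destroys the deoxynucleotides that reverse transcription needs, the APOBEC3 enzymes deaminate cytidines in single-stranded DNA, and ADAR converts adenosine to inosine in double-stranded RNA, which keeps the cell's own RNA from being sensed as viral.

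The promoter sequences are shown first so that the GAAA blocks near the starts of BST2, RSAD2 and MX1 can be read beside their values. RefSeq promoter windows (GRCh38.p14, 250 bases before and 50 after each start) were found for 5 of the 10 genes, in 10 windows. The motif searched was GAAA, any 1 or 2 bases, and GAAA again, on both strands, so that the opposite strand reads TTTC, any 1 or 2 bases, TTTC. Overlapping matches were each counted. BST2, MX1 and RSAD2 had at least 1 match. SAMHD1 (1 window) and ADAR (3 windows) had no match of these letters in their windows. Over all 35116 windows, 6.40% held the motif, and over all 27305 genes with a window, 7.83% did. Each stretch below runs 5′ to 3′ on the strand of the gene, and capitals mark the matched bases.
BST2, minus strand, chr19:17405693-17405812: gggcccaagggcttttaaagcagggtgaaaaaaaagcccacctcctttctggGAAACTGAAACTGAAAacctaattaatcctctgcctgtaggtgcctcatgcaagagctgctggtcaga
RSAD2, plus strand, upstream start, chr2:6865723-6865842: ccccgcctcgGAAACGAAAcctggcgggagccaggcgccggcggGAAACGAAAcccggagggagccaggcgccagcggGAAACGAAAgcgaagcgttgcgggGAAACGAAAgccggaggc
RSAD2, plus strand, downstream start, chr2:6877577-6877696: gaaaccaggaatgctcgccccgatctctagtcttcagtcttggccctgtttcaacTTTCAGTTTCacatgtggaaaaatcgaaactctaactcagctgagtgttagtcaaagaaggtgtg
MX1, plus strand, first start, chr21:41420558-41420585: cgagcaGAAATGAAACCGAAActgaatt
MX1, plus strand, second start, chr21:41426093-41426212: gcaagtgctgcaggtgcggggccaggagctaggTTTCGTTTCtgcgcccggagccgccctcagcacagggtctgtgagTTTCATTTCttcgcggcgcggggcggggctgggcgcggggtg

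In BST2 the 2 overlapping matches lay 130 to 115 bases before the start and share their middle GAAA block. The upstream RSAD2 start had 4 matches between 152 and 52 bases before it, all with the same letters. MX1 had 2 matches, 113 and 68 bases before its second start, and 2 overlapping ones just after its first start. One further MX1 match lay before the first start and another before the third start. A match is a description of letters in the window, and binding was not measured. The second motif searched, TTCNNNGAA, is a palindrome of the gamma-activated type and reads the same on both strands. It was found in 2 of the 5 genes, BST2 and MX1, against 9.38% of all genes with a window.

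Each value below is the authors' deposited linear intensity, and each difference is the log2 of the intensity on the HCT116-CPEB4 array over that on the HCT116-GFP array. There is 1 array per group, so no difference has a replicate check and no p-value is given. Probe sets whose intensity was at least 60.8, the median of all values in the table, on either array were kept, and this cut is called the dim filter here. The words called higher and called lower mean a difference of at least 2-fold, a rule of size. The spread of the 1000 probe sets nearest in mean log2 intensity, given as their central 95%, shows how far probe sets of like brightness differed between these 2 arrays.

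Both arrays had near-equal medians, 61.1 on HCT116-CPEB4 and 60.6 on HCT116-GFP. The 3 kept probe sets of CPEB4 itself differed by −0.22, −0.44 and −0.08, so none read higher in the HCT116-CPEB4 sample. The part of the transcript these probe sets read is not known here, and every direction below rests on the array labels. EPCAM (−0.02), KRT19 (−0.01) and CDH1 (−0.33), epithelial markers, were bright on both arrays and the lowest of their list in difference, with VIL1 (1.26), CEACAM5 (0.35) and CDX2 (0.22) the highest. The HCT116-GFP value of VIL1 was 32.2, under the filter, and its other kept probe set differed by −5.60. The other kept probe set of KRT19 differed by 1.69. The colon markers CDH17 and LGALS4 lay under the dim filter on both arrays. Of 32 probe sets for leukocyte markers, cells that carry much of these factors in blood, 3 reached the dim filter on HCT116-CPEB4 and 3 on HCT116-GFP, with summed intensities of 793 and 1099. No marker was at 0, and the 4 kept genes were CSF1R (1.38), ITGAM (−0.02), CD79A (−0.74) and NCAM1 (−0.93). The ratio of 3′ to 5′ signal for the ACTB control, which grows with RNA degradation, was 10.3 on HCT116-CPEB4 and 8.23 on HCT116-GFP. For the GAPDH control the ratio was near 1, at 1.04 on HCT116-CPEB4 and 0.989 on HCT116-GFP. The part of RNA quality in the results was not tested.

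Of the 18 probe sets, 14 passed the dim filter, and they covered 9 of the 10 genes. Of the kept probe sets, 11 read higher on the array labelled HCT116-CPEB4 and 3 read lower. The 2-fold rule called 4 higher, in MX1, BST2 and RSAD2 (2 probe sets), against 4.6% of all 25010 kept probe sets. It called 1 lower, in APOBEC3F, against 4.48% of all kept probe sets. With each gene taken at its kept probe set of highest mean log2 intensity, 3 of 9 genes were called higher and 0 lower, against 3.55% and 3.85% of 13704 genes. Of the 9 genes, 8 lay above 0, against 50.1% of all genes. The median difference was 0.47 (1.39-fold) over the 9 genes and 0.0009 over all genes. Passing the filter through 1 array alone favours large differences, so the counts are read with the intensities given gene by gene.

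**Figure D1:**
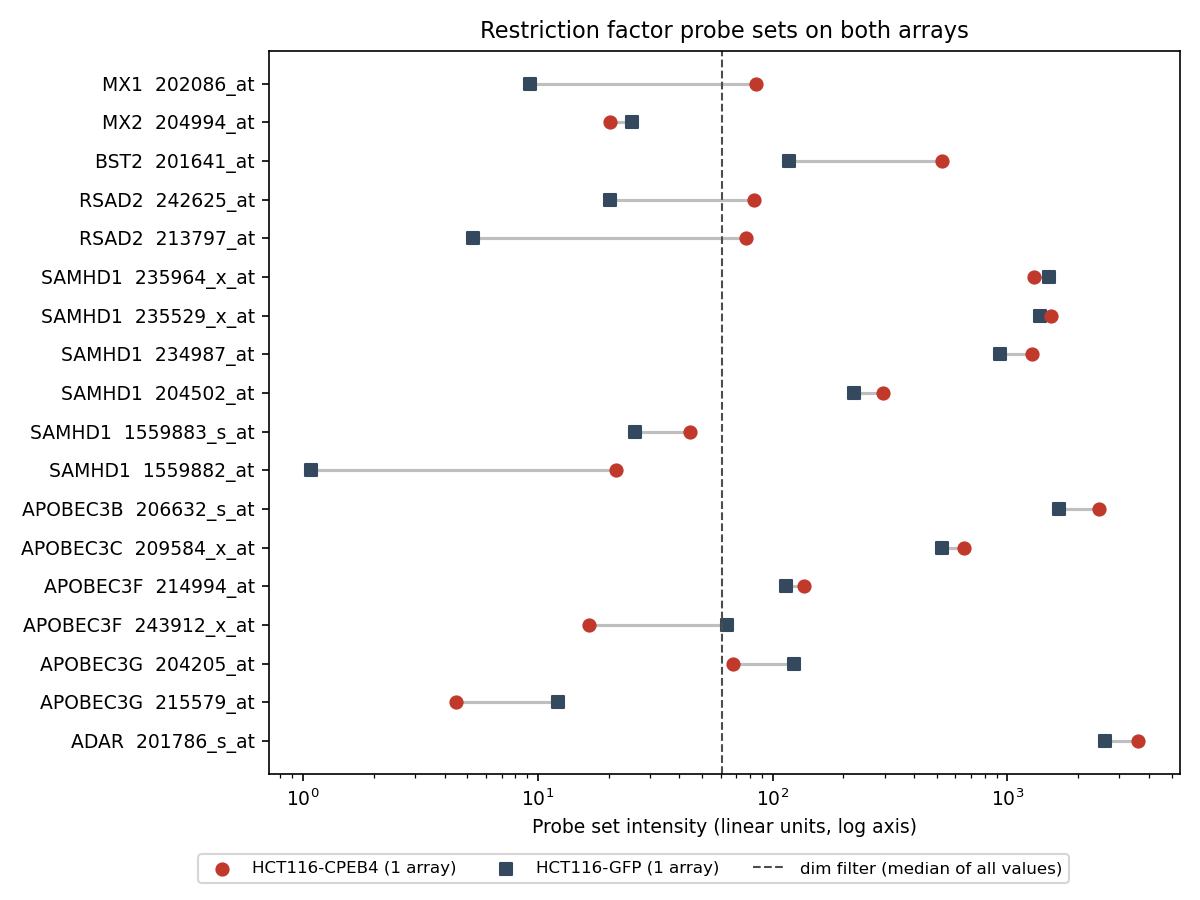
Intensity of each of the 18 probe sets (log axis) on the HCT116-CPEB4 array (circles) and the HCT116-GFP array (squares), with the dim filter at 60.8 as a dashed line. BST2 lies to the right of the line on both arrays, while MX1 and both RSAD2 probe sets cross it.

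BST2 was the 1 gene called higher with both arrays above the dim filter. Its probe set (201641_at) read 526 on HCT116-CPEB4 and 117 on HCT116-GFP, a difference of 2.17 or 4.50-fold. Probe sets of like brightness lay between −0.73 and 0.82, and BST2 stood at their 99.9th percentile. Among all kept probe sets with both arrays at or above the filter, 0.877% were called higher and 0.639% lower. The BST2 difference was 2.16 with quantile normalization, 2.15 with loess and 2.17 with centring. The alternatives on filters, dim values and probe sets left this probe set unchanged, so they returned 2.17 by construction. BST2 has a single probe set, so no second reading of its transcript was at hand. In bulk RNA, more cells that carry a transcript and more transcript per cell cannot be told apart.

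RSAD2 read higher at both of its probe sets, from values under the dim filter on HCT116-GFP. Probe set 242625_at read 83.2 on HCT116-CPEB4 and 20.4 on HCT116-GFP (2.03), and 213797_at read 77.2 and 5.27 (3.87). Both probe sets were above the filter on HCT116-CPEB4 and under it on HCT116-GFP. At like brightness the central 95% ran from −2.01 to 2.29 for the first, which lay inside it, and from −3.33 to 3.28 for the second, which lay above it. With values under the filter raised to it, the differences were 0.45 (1.37-fold) and 0.34 (1.27-fold), both under the 2-fold rule.

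MX1 showed the same pattern at its single probe set (202086_at). It read 85.1 on HCT116-CPEB4 and 9.29 on HCT116-GFP, a difference of 3.20, and lay at the 99.1st percentile of probe sets of like brightness (−2.79 to 2.83). With the HCT116-GFP value raised to the filter, the difference was 0.49, or 1.40-fold. Among all kept probe sets that were under the filter on HCT116-GFP, 53.3% were called higher, because such a probe set passes through its HCT116-CPEB4 value alone. The MX1 and RSAD2 calls therefore rest on a signal just above the filter on 1 array, and the size of their fold changes is set by dim HCT116-GFP values.

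MX2, which blocks nuclear import of HIV-1 and has a gene next to that of MX1, was under the filter on both arrays. It read 20.3 on HCT116-CPEB4 and 25.2 on HCT116-GFP (−0.32), inside the central 95% of −3.18 to 3.10. A difference between the arrays was not detectable for MX2 at this signal.

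**Figure D2:**
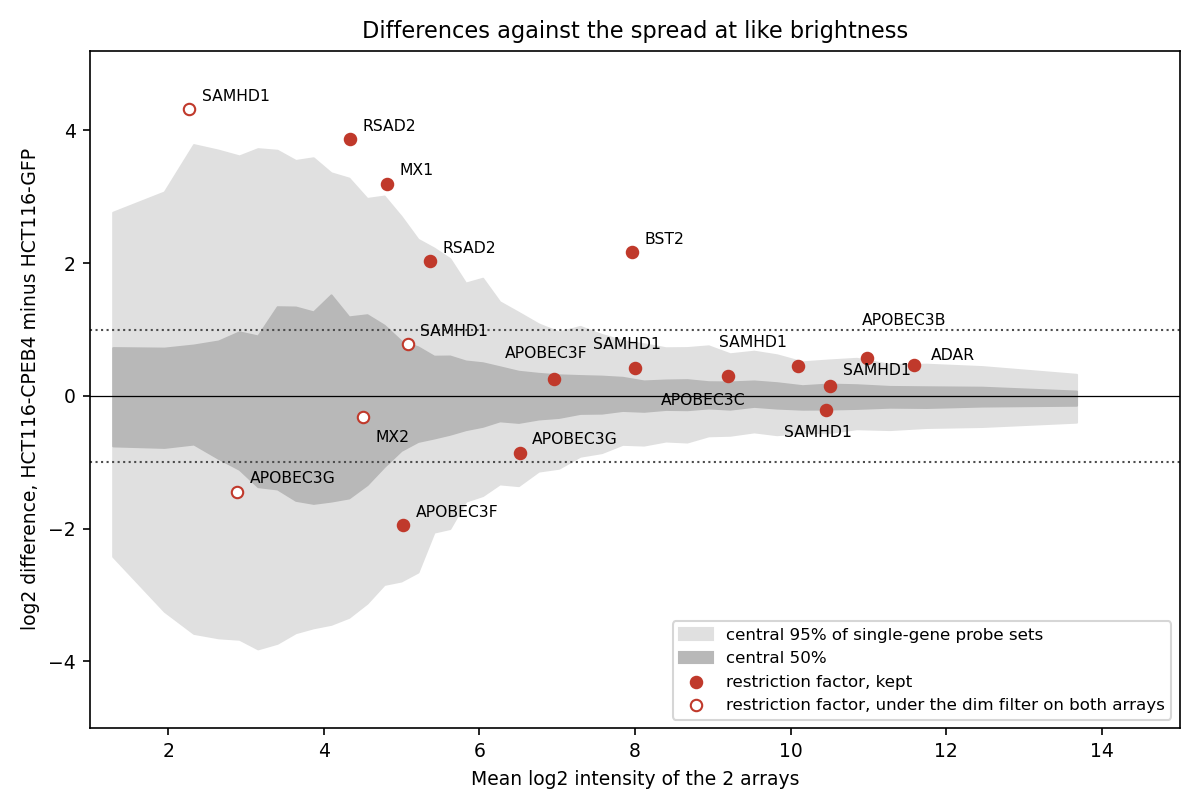
Log2 difference (HCT116-CPEB4 minus HCT116-GFP) of each restriction factor probe set against its mean log2 intensity, over bands that hold the central 95% and 50% of single-gene probe sets of like brightness, with dotted lines at 2-fold. BST2 at 2.17 lies far above the band where the band is narrow, and MX1 at 3.20 lies just above a wide band.

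ADAR was well above the filter on both arrays and was not called. The probe set (201786_s_at) read 3611 on HCT116-CPEB4 and 2603 on HCT116-GFP, a difference of 0.47 or 1.39-fold. That lay inside the central 95% of −0.49 to 0.50 at its brightness, at the 97.1st percentile. ADAR makes a long, interferon-induced isoform and a shorter constitutive one, and the probe set's place on them is not known here, so the isoforms were not separated.

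APOBEC3B, a nuclear deaminase known as a source of mutations in several tumour types, read 2451 on HCT116-CPEB4 and 1652 on HCT116-GFP. The difference of 0.57 (1.48-fold) was just above the central 95% of −0.50 to 0.56. It ran from 0.56 to 0.57 with quantile normalization, loess and centring and did not reach 2-fold. The other alternatives could not change the value of its single probe set.

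The other APOBEC3 genes differed less or in the other direction. APOBEC3C, the shortest of these enzymes, read 650 on HCT116-CPEB4 and 527 on HCT116-GFP (0.30), inside its central 95% of −0.59 to 0.66. Its probe set (209584_x_at) carries the manufacturer's suffix for possible cross-hybridisation, as does 1 probe set of APOBEC3F.

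APOBEC3F and APOBEC3G are packaged into retroviral particles and mutate the viral DNA. APOBEC3F read 136 on HCT116-CPEB4 and 114 on HCT116-GFP at 214994_at (0.26), but 16.5 and 63.9 at 243912_x_at (−1.95). The second lies under the filter on HCT116-CPEB4. Of kept probe sets under the filter on that array, 55.6% were called lower. The mean of the 2 APOBEC3F differences was −0.85, so the direction of APOBEC3F is not settled.

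APOBEC3G was the 1 gene to read lower at its brightest kept probe set. Probe set 204205_at read 68.0 on HCT116-CPEB4 and 123 on HCT116-GFP, a difference of −0.86, inside the central 95% of −1.34 to 1.23. Its other probe set (215579_at) was under the filter on both arrays, at 4.49 and 12.2 (−1.44). Both APOBEC3G probe sets thus read lower, neither beyond the spread at its brightness. The APOBEC3 genes are alike in parts of their sequence, and signal of 1 gene at the probe set of another cannot be told apart here.

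SAMHD1 had 6 probe sets, the most of any of the genes, and they bracket 0. Probe set 235529_x_at read 1537 on HCT116-CPEB4 and 1378 on HCT116-GFP (0.16). The next, 235964_x_at, read 1301 and 1500 (−0.21). Probe set 234987_at read 1277 and 933 (0.45), and 204502_at read 295 and 221 (0.42). All 4 lay inside the central 95% at their brightness, with a median of 0.29. Of these 4, the 2 without the cross-hybridisation suffix had the higher differences.

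The last 2 SAMHD1 probe sets were under the filter on both arrays, at 44.3 and 25.8 for 1559883_s_at (0.78) and at 21.5 and 1.08 for 1559882_at (4.32). The difference of 4.32 was the largest among the 18 probe sets in size, and it stood on 2 values under the filter. The kept probe sets of the same gene gave no such difference.

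**Figure D3:**
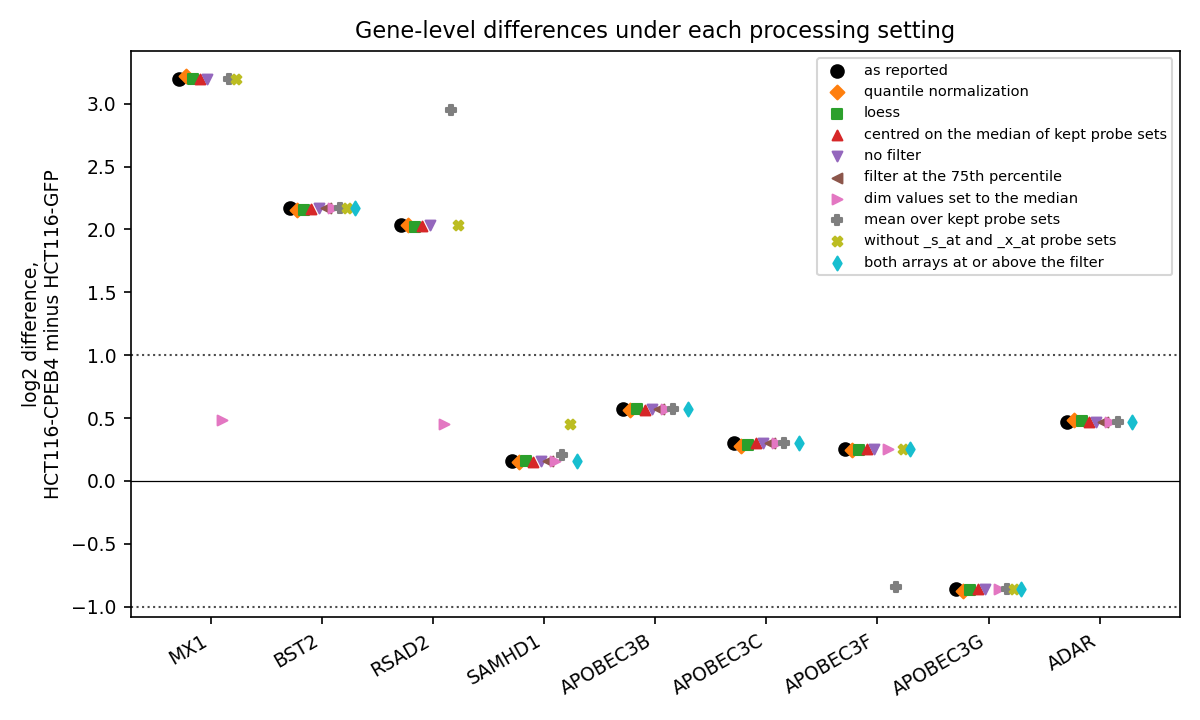
Gene-level log2 difference (HCT116-CPEB4 minus HCT116-GFP) of the 9 measured restriction factors under each processing setting, with dotted lines at 2-fold. BST2 stays between 2.15 and 2.17, with quantile normalization, loess and centring the only settings able to move it. MX1 and RSAD2 drop to 0.49 and 0.45 when dim values are raised to the filter, and APOBEC3F changes sign with the mean over probe sets.

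Genes that work with the restriction factors were read on the same arrays. CMPK2, a mitochondrial nucleotide kinase whose gene lies next to RSAD2, read 757 on HCT116-CPEB4 and 219 on HCT116-GFP (1.79). Of the 14 nucleotide supply and repair genes measured, CMPK2 was the 1 called higher and 0 were called lower. Over all genes the shares were 3.55% and 3.85%, and the list median was 0.07. RRM1 and RRM2, the subunits of ribonucleotide reductase that make the deoxynucleotides SAMHD1 destroys, differed by −0.01 and 0.32. DCK, a salvage kinase, differed by 0.21, the p53-induced reductase subunit RRM2B by −0.16 and the base excision nuclease APEX1 by −0.12. CDK1, which phosphorylates SAMHD1, had 4 probe sets between −0.55 and 0.14, with −0.55 at the brightest.

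The sensors and effectors of double-stranded RNA, which ADAR editing restrains, were mostly called higher, while ADAR was not. Of 9 measured genes, 6 were called higher and 1 lower, against 3.55% and 3.85% of all genes, with a median of 1.48. EIF2AK2 (PKR), the kinase that halts translation on double-stranded RNA, read 3664 on HCT116-CPEB4 and 1390 on HCT116-GFP (1.40), and its 3 kept probe sets ran from 0.94 to 2.63. The highest differences were those of OASL (3.22), the sensor IFIH1, which read 2469.6 on HCT116-CPEB4 and 309 on HCT116-GFP, and OAS1 (2.26), whose HCT116-GFP value of 60.2 was under the filter. TLR3, an endosomal receptor for double-stranded RNA, read 229 and 53.4 (2.10), the second value under the filter. The other kept probe set of TLR3 differed by 0.35, under the 2-fold rule. With both arrays required at or above the filter, 4 genes of the list were called higher. The sensor RIGI differed by 0.93 at its brightest probe set, the lowest of its 3 kept probe sets, which ran up to 2.18. With the mean over kept probe sets, 7 genes of the list were called higher. The adaptor MAVS differed by 0.38, and OAS2 read 35.7 and 100.5 (−1.49), the first value under the filter. ZBP1 and DHX58 were under the filter on both arrays.

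Of the genes related by sequence, GBP3 was the 1 called, where 3.55% of all genes were called higher and 3.85% lower. Among the other AID/APOBEC genes, APOBEC3D differed by 0.53, with its HCT116-GFP value of 51.8 under the filter, and APOBEC4 read 37.8 and 68.1 (−0.85), the first under it. APOBEC1 was under the filter on both arrays, and APOBEC3A and APOBEC3H were not analysed here. Of 6 measured ADAR relatives 0 were called, with ADAD1 (0.70), ADAT1 (0.70) and ADAD2 (0.69) highest and ADAT3 (0.06), ADARB1 (−0.16) and ADAT2 (−0.24) lowest. The 3 kept probe sets of ADARB1 ran from −2.37 to −0.16, so the lowest of them was past 2-fold. The other kept probe set of ADAT2 differed by 0.26. Of 7 dynamin relatives of the MX proteins 0 were called. DNM1 (0.35), MFN2 (0.24) and MFN1 (0.19) were highest, and DNM3 (0.16), DNM2 (−0.09) and OPA1 (−0.19) lowest. Apart from DNM1, with 1 kept probe set, each of these named genes had kept probe sets on both sides of 0. The list named interferon-induced GTPases holds guanylate-binding proteins and related large GTPases, with ATL3 among the related ones. Of its 3 measured genes, GBP3 was called higher, at 137 and 41.5 (1.72), the second value under the filter. GBP2 differed by 0.46 and ATL3 by −0.12, with 0.56 at the other kept probe set of ATL3.

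Most of a wider set of restriction factors read higher on the HCT116-CPEB4 array too. Of 28 measured genes, 26 lay above 0, against 50.1% of all genes, and the median was 0.72. The 2-fold rule called 12 higher and 0 lower, against 3.55% and 3.85% of all genes. SAMD9, an inhibitor of poxviruses, differed by 2.35, IFITM1, which stops fusion at the membrane, by 1.91, and IFIT2 by 2.38. IFIT3 and IFIT1 had the highest differences, 3.95 and 3.72, and the other kept probe set of IFIT3 differed by 1.78. At the other end, SERINC5 (−0.43) and SERINC3 (−0.18), which are built into the viral envelope and reduce HIV-1 infectivity, read lower. DAXX, IFITM2 and IFITM3 were between 0.01 and 0.07. The 4 kept probe sets of SERINC3 ran from −0.35 to 0.08, and the other kept probe set of DAXX differed by −0.35.

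Of the interferon signalling genes, 10 were measured. IRF7 was the 1 called higher (1.73) and 0 were called lower, against 3.55% and 3.85% of all genes. IRF9 differed by 0.89, and USP18, which restrains the receptor, by 0.80. JAK1 (−0.23), SOCS1 (−0.11) and IRF3 (0.04) were the 3 lowest, and the median was 0.14. The 3 kept probe sets of JAK1 ran from −0.23 to 0.83, so its direction is not settled.

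**Figure D4:**
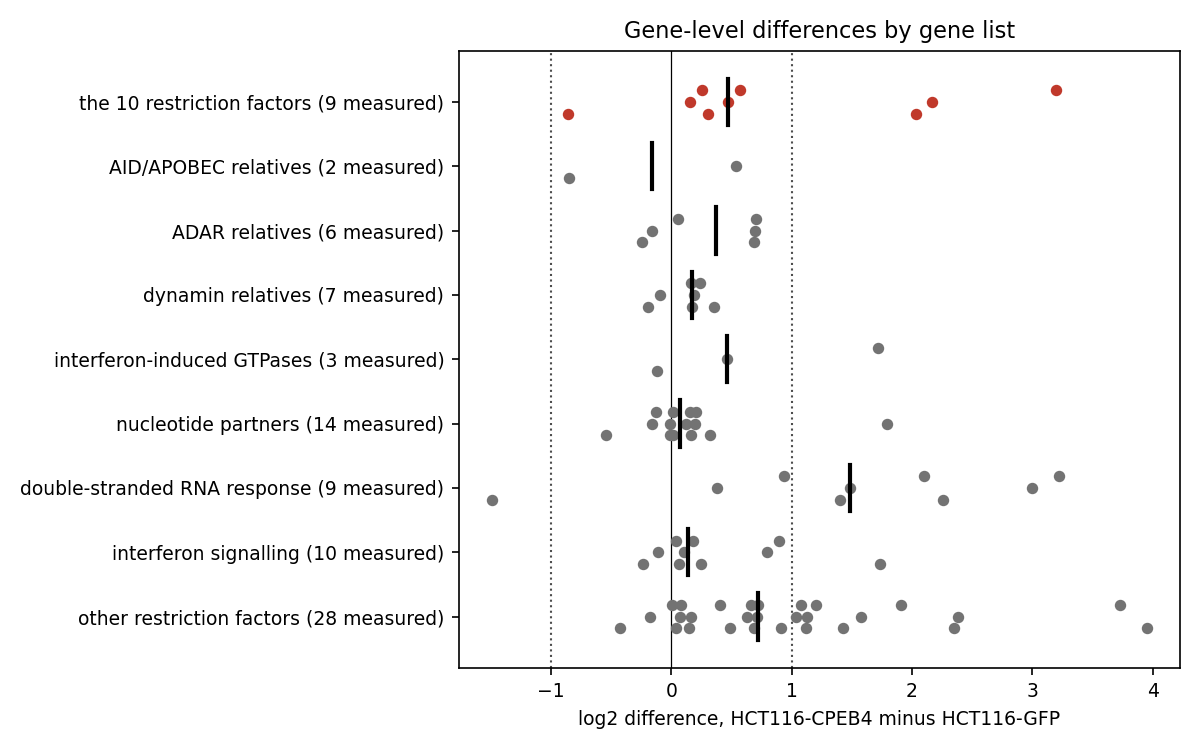
Gene-level log2 difference (HCT116-CPEB4 minus HCT116-GFP) of every measured gene in each list, with black bars at the list medians and dotted lines at 2-fold. The 9 measured restriction factors have a median of 0.47. Medians of the other lists shown run from −0.16 for the AID/APOBEC relatives (2 measured) to 1.48 for the double-stranded RNA response. The nucleotide partners have a median of 0.07.

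The promoter motif can be set beside the differences. The 3 restriction factors with a GAAA pair, MX1, BST2 and RSAD2, differed by 2.03 to 3.20, and the 2 without it, SAMHD1 and ADAR, by 0.16 and 0.47. MX1 and RSAD2 passed the filter through HCT116-CPEB4 alone, and with dim values raised to the filter they differed by 0.49 and 0.45, beside 0.47 for ADAR. The contrast among these 5 genes therefore rests on BST2 (2.17). MX1 had 3 windows and RSAD2 had 2, which gives more letters to match than the single windows of BST2 and SAMHD1. In the wider list, 8 of 13 measured genes with a pair were called higher, against 2 of 9 without one. That list was chosen with earlier results of these data known, so its split by motif is a description and no test. Over all measured genes with a window, 58 of 749 with a pair (7.74%) were called higher, against 299 of 10292 without one (2.91%), and the medians were −0.004 and 0.002. The calls over all genes include genes that passed the filter through HCT116-CPEB4 alone. These shares describe 2 arrays, and most of the 749 genes with a pair were not called higher.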

How the data were processed

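Total RNA of 2 HCT116 cultures was measured on 1 array each, and groups were taken from the sample titles. The authors deposited 1 linear intensity per probe set and array, with 0 unused columns. The submitters' processing notes name Partek with no version or role, and the steps of summarisation, background correction and scaling were not given in the sources used here. Probe sets were named through the platform annotation, with symbols updated by Entrez identifier to RefSeq (GRCh38.p14). Of 54675 probe sets, 41097 had 1 symbol, of which 41043 matched RefSeq, 1801 had several and 11777 had none. The 62 control probe sets were left out of the comparisons. The log2 was taken without a pseudocount (Python 3.11.15, pandas 2.3.3, numpy 2.4.6, statsmodels 0.14.6 for loess). The procedure was run on simulated arrays with 4-fold changes planted in 200 genes well above the dim filter, and 200 were recovered. No change was planted in dim genes, so the simulation does not bear on calls such as those of MX1 and RSAD2. With 1 array per group there is no test, and precision is limited by the number of arrays.

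The restriction factors and the gene lists were chosen with earlier results of these data known. The rule for named genes took all probe sets of the 10 genes and of CPEB4, the 3 highest and 3 lowest measured genes of each other list (5 and 5 for the other restriction factors), and direct partners of the 10 genes. TLR3, ZBP1, DHX58, APOBEC1, CDH17, LGALS4 and the neighbouring genes were named after their values were seen.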

Additional observations from a re-analysis of the deposited data

Results flagged for a closer look

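One probe set outside the comparisons read higher on the array labelled HCT116-CPEB4. It is annotated to APOBEC3F and APOBEC3G together (214995_s_at) and was therefore left out of the 18. It read 110 on HCT116-CPEB4 and 62.8 on HCT116-GFP, a difference of 0.81 or 1.75-fold, with no replicate check. Its direction is opposite to that of both APOBEC3G probe sets and of 1 of the 2 APOBEC3F probe sets. Which of the 2 genes gives its signal was not tested.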

How the results depend on the processing

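No paired analysis was possible because each group has 1 array, and for the same reason no array could be left out. Across 140 recomputed summaries, 110 stayed within 1.5 times of the reported count (or, for the median, within 0.27, the median gap between the 2 brightest kept probe sets of a gene) and 30 did not. Quantile normalization, loess and centring moved none of the summaries past those limits. Some of the 110 could not move by construction. The 1.5-fold rule leaves the median as it is, and the mean over probe sets leaves the probe set counts as they are. The count of 110 is therefore no measure of stability by itself. The calls of MX1 and RSAD2 depend on dim values: with such values raised to the filter, with the stricter filter (377, the 75th percentile), or with both arrays required at or above the filter (an alternative chosen after seeing the data), 1 restriction factor probe set and 1 gene, BST2, were called higher and 0 probe sets lower. Over all genes the percentages called higher and lower were 0.992 and 0.861 with raised values, 0.473 and 0.165 with the stricter filter, 0.734 and 0.577 with both arrays required, 8.91 and 9.48 with no filter, and 8.22 and 8.30 at 1.5-fold. With no filter 2 restriction factor probe sets were called lower, as were 2 at 1.5-fold. Without probe sets ending in _s_at or _x_at, 0 were called lower and the median was 1.24 over 6 genes. Other lists moved by small counts of genes called higher. The AID/APOBEC relatives had 1 with no filter. The interferon-induced GTPases had 2 with no filter, and 0 with the stricter filter and with both arrays required. The ADAR relatives had 3 at 1.5-fold. Interferon signalling had 3 at 1.5-fold and 0 without _s_at and _x_at probe sets. Gene by gene, RSAD2 was 2.95 and APOBEC3F −0.85 with the mean over probe sets, and SAMHD1 was 0.45 without the cross-hybridising ones. Fewer probe sets remain under the stricter filters by construction. Signal over background limits MX1, MX2, RSAD2 and the dimmer APOBEC3 probe sets.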

Other observations

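The 3 protein-coding genes on each side of every restriction factor locus, in the gene order of RefSeq, were read after the values of the restriction factors had been seen. Of 37 such neighbours, APOBEC3D inside the APOBEC3 cluster included, 28 were measured, and their median difference was −0.02. Of the 28, 3 were called higher and 3 lower, against 3.55% and 3.85% of all genes. The 3 higher ones were CMPK2, already described, TMPRSS2 and TDRD10. TMPRSS2, a surface protease that primes influenza and coronavirus entry proteins, lies directly beside MX1 and read 84.4 on HCT116-CPEB4 and 12.3 on HCT116-GFP (2.78), close to the pattern of MX1 and from a value under the filter in the same way. TDRD10, the third gene before ADAR, read 101 and 31.5 (1.67), the second value under the filter. The 3 lower ones, PLVAP near BST2 (2.93 on HCT116-CPEB4 and 87.5 on HCT116-GFP), DSCAM near MX2 (41.4 and 89.0) and TLDC2 beside SAMHD1 (47.0 and 99.9), were each under the filter on HCT116-CPEB4.

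Other genes next to the restriction factors were not called. MVB12A, next to BST2, read 1934 on HCT116-CPEB4 and 1817 on HCT116-GFP (0.09), and RNF144A, next to RSAD2, read 449 and 545 (−0.28). On either side of ADAR, CHRNB2 differed by 0.63, and PMVK, the second gene on the other side, by −0.08.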
